A study of Mus musculus with 6 samples.

Results

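The 10 genes described here encode the proteins with which a cell senses bacterial lipopolysaccharide (LPS) and lipopeptides: Lbp, Cd14, Ly96, Tlr4, Tlr2, Tlr3, Myd88, Tirap, Ticam1 and Irak3. They were taken as a named list, by symbol, from the 55487 genes in the tables, and all 10 were found. The study measured RNA of mouse chondrocytes, cultured cells of knee cartilage with the strain background C57B/6, in 6 libraries. In 3 libraries the cells had received extracellular vesicles of macrophages (M-EV) and in 3 vesicles of macrophages that had been stimulated with LPS (M-LPS-EV). Both vesicle kinds were given at 10 µg/ml of protein for 24 h, in medium with heat-inactivated serum. Cells without vesicles were not analysed here, so every value compares the vesicle kinds with each other. The sources used here do not name the macrophages' origin or the animals behind each library.

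LPS is handed from protein to protein before it signals. LBP, a soluble protein, takes LPS from bacterial membranes and passes it to CD14, which hands it to MD-2 (the product of Ly96) in its complex with TLR4. TLR2 pairs with TLR1 or TLR6 to bind lipopeptides, and TLR3 binds double-stranded RNA inside endosomes. TIRAP and MyD88 carry the signal of TLR2 and of TLR4 at the plasma membrane towards NF-kB, TRIF (the product of Ticam1) carries that of TLR3 and of internalised TLR4, and IRAK3 (IRAK-M) restrains the MyD88 branch.

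Cells given M-LPS-EV had more RNA of the LPS carriers Lbp and Cd14, of the receptors Tlr2 and Tlr4, of the adaptor Myd88 and of the inhibitor Irak3. Lbp changed most, with a fold of 37.2 between the groups, followed by Tlr2 with 3.44, Irak3 with 2.89 and Cd14 with 2.27. Tlr4 and Myd88 rose by less, with folds of 1.37 and 1.27. Ly96, Tlr3, Tirap and Ticam1 were not called. So 6 of the 10 genes were called higher and none lower (two-sided quasi-likelihood test in edgeR, Benjamini-Hochberg adjusted over the 14604 genes tested, threshold 0.05), beside 16.4% called higher, 15.2% called lower and 31.6% called in either direction among all tested genes. No member had a lower level at an unadjusted p under 0.05, with 0 such genes in edgeR, DESeq2 and limma-voom. The same 6 genes were those whose libraries did not overlap between the groups in CPM, beside 42.2% of all tested genes without overlap in either direction and 21.5% without overlap and higher. The median log2 fold change was 0.40 over the 10 genes and 0.0028 over all tested genes. Every member had at least 16 reads in every library, so none passed the count filter through 1 group alone. In RNA of whole cultures, a change in the number of cells of a type and a change in RNA per cell cannot be told apart.

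**Figure D1:**
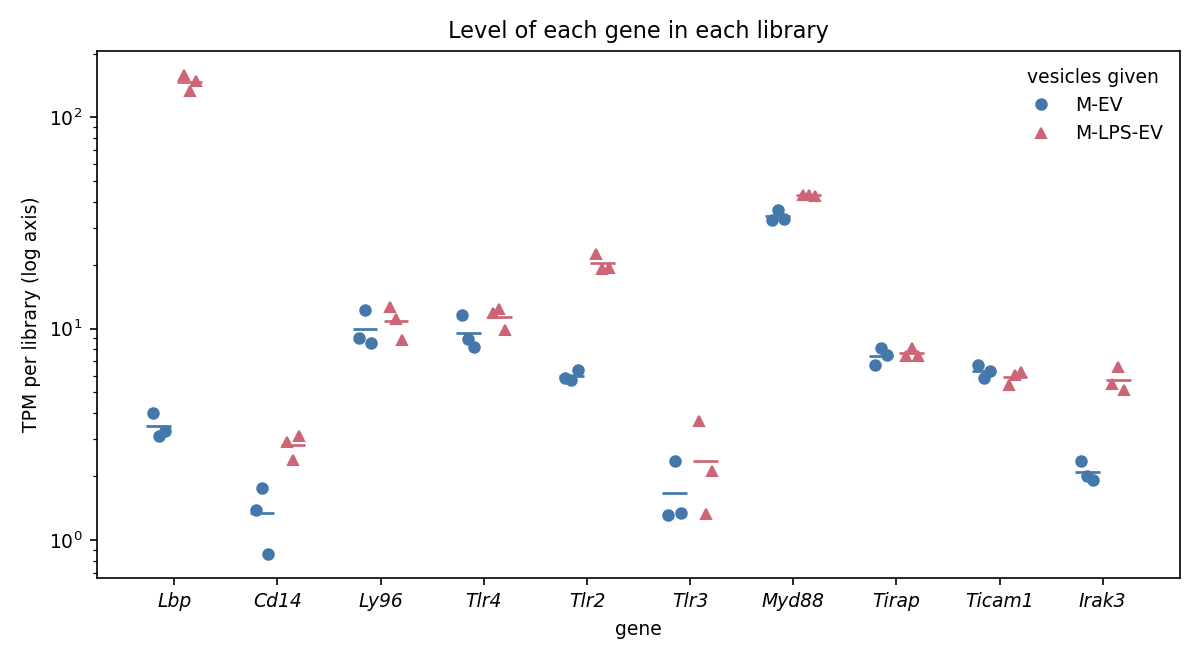
TPM (a level corrected for transcript length and library size, on a log axis) of the 10 genes in each of the 6 libraries; circles are M-EV libraries, triangles M-LPS-EV libraries and short lines the mean of 3. Lbp moved from seventh to first in level, and Tlr2 crossed from below to above Tlr4.

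Levels of different genes were compared as TPM, which corrects for transcript length. With M-EV, Myd88 stood highest at 34.0 ± 2.19 TPM (SD, n = 3). Ly96 with 9.96 ± 1.96 TPM and Tlr4 with 9.57 ± 1.78 TPM followed and did not differ beyond their spread. Next came Tirap with 7.44 ± 0.668 TPM, and then Ticam1 with 6.28 ± 0.420 and Tlr2 with 5.98 ± 0.348 TPM, whose ranges overlapped. Lbp stood at 3.47 ± 0.469 TPM. The lowest were Irak3 with 2.10 ± 0.229, Tlr3 with 1.67 ± 0.598 and Cd14 with 1.34 ± 0.452 TPM, each overlapping its neighbour in the order. The adaptor used by most of the receptors was thus the most abundant of these transcripts in the M-EV libraries.

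With M-LPS-EV the order was another one. Lbp came first with 148 ± 12.8 TPM, ahead of Myd88 with 42.7 ± 0.239 and Tlr2 with 20.4 ± 1.98 TPM, with no overlap between these neighbours. Tlr4 with 11.4 ± 1.32 and Ly96 with 10.9 ± 1.89 TPM overlapped again. Tirap followed with 7.65 ± 0.376 TPM, apart from both of its neighbours. Ticam1 with 5.91 ± 0.432 and Irak3 with 5.74 ± 0.753 TPM overlapped, as did Cd14 with 2.81 ± 0.383 and Tlr3 with 2.37 ± 1.19 TPM at the bottom of the list. Lbp held between 3.76% and 4.99% of the reads of the 10 genes in the M-EV libraries and between 53.3% and 54.2% in the M-LPS-EV libraries.

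Lbp (ENSMUSG00000016024) lies on chromosome 2 from 158306493 to 158332852 in mm10, on the plus strand. Its product is best known as an acute-phase protein that the liver secretes into serum. It stood at 4.98, 4.04 and 4.34 CPM in the M-EV libraries and at 176, 165 and 160 CPM in the M-LPS-EV libraries, where CPM are reads scaled to a common library size with TMM factors. All 3 libraries given M-LPS-EV lay far above all 3 given M-EV. The log2 fold change was 5.22 (SE 0.06, edgeR adjusted p = 4.0e-28), and the 95% interval of the fold ran from 34.1 to 40.6. In reads this was a step from 314 to 10919 per group. Lbp had the 19th highest log2 fold change of the 14604 tested genes. Bpi, which encodes the related LPS-binding protein of neutrophils, had 1 and 2 reads in the groups, too few for the test.

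The longest coding form, Lbp-201, held 91.35%, 96.57% and 100% of the gene's abundance in the M-EV libraries and 79.04%, 88.41% and 75.43% in the M-LPS-EV libraries. Most of the remainder with M-LPS-EV was Lbp-203, a 436-base transcript from the middle of the gene (158314206 to 158324642), with 17.42%, 6.63% and 20.87% against 4.96%, 3.43% and 0.00% with M-EV. The groups did not overlap in this share. Such a short transcript has few positions for a read, so a small number of reads makes a large share: Lbp-203 was credited with 79.35, 28.83 and 85.73 reads in the M-LPS-EV libraries. On Lbp-201 alone the levels were 3.65, 3.01 and 3.28 TPM and then 126, 118 and 113 TPM. The test of transcript usage did not call Lbp (edgeR diffSpliceDGE, Simes adjusted p = 1, unadjusted p = 0.10).

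Cd14 (ENSMUSG00000051439), the LPS coreceptor that monocytes carry at high levels, had 21, 25 and 16 reads in the M-EV libraries and 41, 47 and 44 in the M-LPS-EV libraries. In CPM these were 0.824, 1.13 and 0.709 and then 1.92, 1.99 and 2.16. The groups did not overlap, although the gene stayed among the least abundant of the 10. Its log2 fold change was 1.18 (SE 0.25, edgeR adjusted p = 0.00052), with a 95% interval of the fold from 1.59 to 3.24. A form with a retained intron was credited with 51.14%, 40.91% and 0.00% of the abundance in the M-EV libraries and 37.66%, 0.00% and 31.34% in the M-LPS-EV libraries. That share was as uneven within the groups as between them. On the scale of log2(TPM + 1) the difference was 0.72.

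Several of the 10 genes are also expressed by macrophages, so macrophage markers were counted beside them. Of 20 markers 11 had enough reads for the test. Of these, 5 were called higher (Adgre1, Itgam, Lyz2, Cd74 and Cybb) and none lower, beside 16.4% and 15.2% of all tested genes. Csf1r, Cd68, Tyrobp, Mrc1, Laptm5 and Fcgr3 were tested and not called, with log2 fold changes from -0.47 (Fcgr3) to 0.20 (Cd68). The count filter bears on the count of markers called. Cybb, with 2, 4 and 13 reads with M-EV and 30, 40 and 39 with M-LPS-EV, passed it only through the M-LPS-EV libraries. The complement genes C1qa, with 37 and 2 reads per group, and C1qb, with 34 and 5, were lower in every M-LPS-EV library than in any M-EV library and were not tested. C1qc had 14 and 2 reads, with groups that overlapped, and was not tested either; the C1q genes are named after their values were seen. The summed level of the 20 markers was 46.0 to 49.2 TPM in the M-EV libraries and 54.1 to 61.0 TPM in the M-LPS-EV libraries. Most of it came from Lyz2, Laptm5 and Cd68. The groups did not overlap in that sum, but its rise was mostly that of Lyz2, from 24.3 ± 1.29 to 34.5 ± 3.09 TPM. Laptm5 stood at 4.96 ± 0.416 and 4.31 ± 0.886 TPM and Cd68 at 4.24 ± 1.17 and 4.51 ± 0.663 TPM. Cx3cr1 had 2 and 0 reads and Aif1 2 and 1 reads per group. No marker was at 0 in all 6 libraries, and 1 to 3 of the 20 were at 0 in a given library. The part of macrophage RNA in the rises of Cd14, Tlr2 and the other members was not tested. The 9 chondrocyte markers summed to 53138 to 53656 TPM with M-EV and 43928 to 45012 TPM with M-LPS-EV. Of these, 8 were called lower, beside 15.2% of all tested genes, and Sox9 was not called. The 7 fibroblast markers summed to 783 to 798 TPM with M-EV and 742 to 767 TPM with M-LPS-EV. Of these, 4 were called lower and 1 higher, beside 15.2% and 16.4% of all tested genes. The 5 endothelial markers summed to at most 2.30 TPM in any library, and neither of the 2 tested was called.

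Ly96, whose product MD-2 forms the LPS-binding pocket of the TLR4 complex, had 57, 67 and 48 reads with M-EV and 67, 66 and 45 with M-LPS-EV. In CPM the values were 2.24, 3.04 and 2.13 and then 3.14, 2.79 and 2.20. The groups overlapped across most of their range. The log2 fold change of 0.14 (SE 0.19) was not called (edgeR adjusted p = 0.63). Its 95% interval ran from -0.25 to 0.54, so changes up to that size are not excluded. Leaving out 1 library at a time moved the value between 0.03, without M-LPS-EV replicate 1, and 0.31, without M-EV replicate 2, with no call. The retained-intron form Ly96-203 took between 2.38% and 15.17% of the gene in single libraries. The rest was Ly96-201, the protein-coding form.

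**Figure D2:**
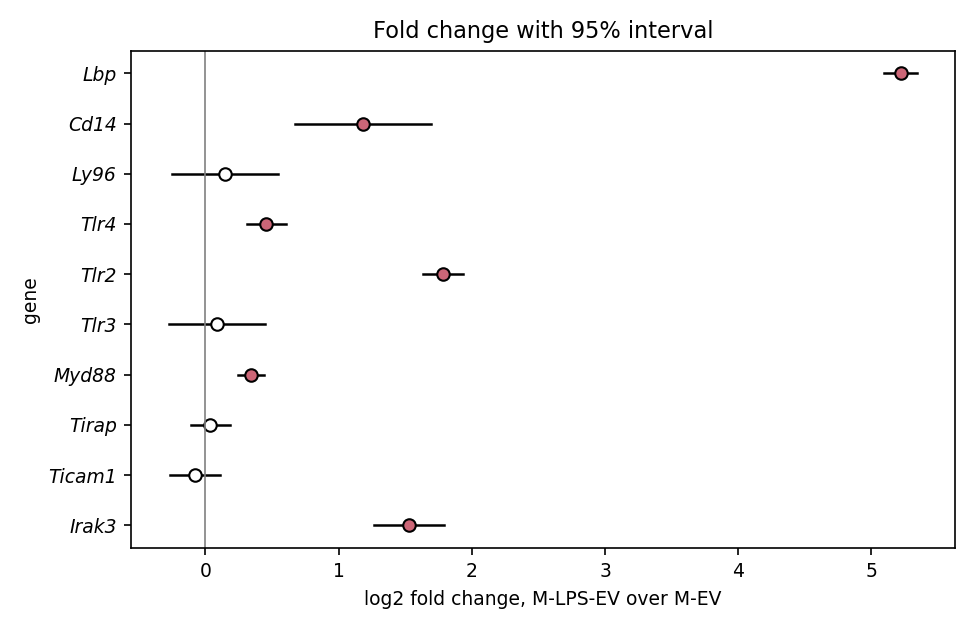
Log2 fold change (M-LPS-EV over M-EV, edgeR) of the 10 genes, with lines for the 95% interval; filled points were called higher and open points were not called. Lbp stands at 5.22, Tlr2, Irak3 and Cd14 between 1.18 and 1.78, and the 4 open points have intervals that include 0.

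Tlr4 (ENSMUSG00000039005), the LPS receptor, lies on chromosome 4 from 66827584 to 66930284. It stood at 18.2, 18.9 and 16.0 CPM with M-EV and at 26.6, 24.2 and 22.1 CPM with M-LPS-EV. The groups did not overlap in CPM, and the log2 fold change was 0.46 (SE 0.07, edgeR adjusted p = 1.2e-05). In TPM they did overlap, with 11.57, 8.96 and 8.18 and then 11.91, 12.35 and 9.87. Tlr4 was no longer called once the fit used effective lengths as offsets (log2 fold change 0.26, edgeR adjusted p = 0.19). The same was seen on log2(TPM + 1) (0.23, limma adjusted p = 0.29) and log2(TPM + 0.1) (0.26, limma adjusted p = 0.28). The library that brought the groups together in TPM was M-EV replicate 1. There 21.73 reads were credited to Tlr4-204, a 646-base transcript annotated as a processed transcript without a coding sequence, and these made 29.11% of the gene's abundance. In the other libraries Tlr4-204 held 0.00% to 6.30%. The mean effective length of Tlr4 was 2746 bases in M-EV replicate 1 and between 3390 and 3874 bases elsewhere. On the coding transcript Tlr4-201 alone the levels were 7.73, 8.41 and 7.15 TPM with M-EV and 11.9, 10.6 and 9.87 TPM with M-LPS-EV, which did not overlap. With reads of the leading transcript only, a setting chosen after the data were seen, the log2 fold change was 0.49 (edgeR adjusted p = 5.4e-06).

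Tlr2 (ENSMUSG00000027995), the lipopeptide receptor, lies on chromosome 3 from 83836272 to 83841767 on the minus strand. It had 9.38, 9.25 and 10.2 CPM with M-EV and 36.7, 31.1 and 31.4 CPM with M-LPS-EV. No M-LPS-EV library came near an M-EV library. The log2 fold change was 1.78 (SE 0.07, edgeR adjusted p = 2.7e-16), with a 95% interval of the fold from 3.10 to 3.81. The tables hold a single transcript of this gene, so its value does not depend on how reads are shared between forms. In TPM, Tlr2 stood at 0.505, 0.640 and 0.780 of the Tlr4 level in the M-EV libraries and at 1.90, 1.55 and 1.96 of it in the M-LPS-EV libraries. The Tlr4 level behind 0.505, in M-EV replicate 1, includes 3.37 TPM credited to Tlr4-204. On Tlr4-201 alone Tlr4 had 7.73, 8.41 and 7.15 TPM with M-EV, beside 5.84, 5.73 and 6.38 TPM of Tlr2. Tlr2 was the lower of the pair in each M-EV library and the higher in each M-LPS-EV library. These ratios were chosen after the values were seen and are given without a test.

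Tlr3, the receptor for double-stranded RNA, had 2.75, 4.31 and 3.06 CPM with M-EV and 3.80, 3.08 and 3.82 CPM with M-LPS-EV. The groups overlapped, and the log2 fold change of 0.09 (SE 0.17, 95% interval -0.28 to 0.45) was not called (edgeR adjusted p = 0.77). Its sign turned without M-EV replicate 1, to -0.05. With effective length offsets it was 0.45 (edgeR adjusted p = 0.44), on log2(TPM + 0.1) 0.42 (limma adjusted p = 0.50) and on reads of the leading transcript alone 0.66 (edgeR adjusted p = 0.35), none of them called. The transcript make-up of Tlr3 varied widely within both groups. Its leading form Tlr3-201 held 72.68%, 0.00% and 35.32% of the abundance in the M-EV libraries and 37.21%, 38.75% and 21.20% in the M-LPS-EV libraries. With 234 and 232 reads per group spread over up to 9 listed transcripts, no share of a single form can be read with confidence.

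A promoter is the stretch before a gene's start where transcription factors bind. RefSeq start sites on GRCm38.p6 gave 8 windows of 250 bases for 6 of the 10 genes: Tlr2, Tlr3, Tirap, Myd88, Irak3 and Ticam1. Tlr4, Cd14, Ly96 and Lbp had no entry. The windows were searched on both strands for the NF-kB consensus motif, the AP-1 motif TGANTCA and the interferon-stimulated response element. Among all 32817 such mouse windows 7.25% held the NF-kB motif, 6.75% the AP-1 motif and 2.97% the response element. The NF-kB motif was found in the windows of Tlr2, which rose, and Tlr3, which was not called. That of Tlr2 has 2 matches that overlap in 1 run of 11 bases, from -173 to -163, counted back from the RefSeq start. In Tlr3 the match lies between -211 and -202, inside an annotated exon. Only -72 to -1 of that window lies outside exons, and the match comes after the annotated start of the leading form Tlr3-201. Myd88 has a match to the response element from -40 to -31. AP-1 had no match in any of the 8 windows, and the windows of Irak3, Tirap and Ticam1 held none of the 3 motifs. A match here is a string of letters and does not show that a factor binds. The sequences below are shown so that the risers Tlr2, Myd88 and Irak3 can be read beside Ticam1, which was not called. Each is the longest part of the window outside annotated exons, 5′ to 3′ on the minus strand, with motif matches in capitals. Irak3 has 2 RefSeq windows: the sequence shown lies before the start of Irak3-205, the form credited with most of the gene in M-EV replicate 2 alone. The window nearer to the start of the main form Irak3-201 lies wholly in annotated exons and is not shown.
Tlr2, chr3:83841768-83841858: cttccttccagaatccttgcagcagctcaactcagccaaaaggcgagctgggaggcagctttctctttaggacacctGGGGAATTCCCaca
Myd88, chr9:119340042-119340268: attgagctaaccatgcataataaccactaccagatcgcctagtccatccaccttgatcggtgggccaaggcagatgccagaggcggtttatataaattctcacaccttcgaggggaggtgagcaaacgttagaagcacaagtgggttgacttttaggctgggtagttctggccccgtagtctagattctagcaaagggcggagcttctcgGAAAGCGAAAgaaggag
Irak3, chr10:120202196-120202380: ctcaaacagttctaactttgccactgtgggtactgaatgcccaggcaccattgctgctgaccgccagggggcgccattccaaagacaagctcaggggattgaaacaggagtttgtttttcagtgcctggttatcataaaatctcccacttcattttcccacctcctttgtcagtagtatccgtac
Ticam1, chr17:56276787-56277017: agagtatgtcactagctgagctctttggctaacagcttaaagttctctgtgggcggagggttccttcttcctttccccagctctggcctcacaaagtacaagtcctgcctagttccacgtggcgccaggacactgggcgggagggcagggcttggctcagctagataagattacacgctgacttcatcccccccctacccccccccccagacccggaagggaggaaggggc

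Myd88 (ENSMUSG00000032508), the adaptor shared by most Toll-like receptors and by the interleukin-1 receptor family, lies on chromosome 9 from 119335934 to 119341411. It stood at 33.0, 37.0 and 33.3 CPM with M-EV and at 43.5, 43.8 and 43.4 CPM with M-LPS-EV. The M-LPS-EV libraries were nearly equal and all above the M-EV libraries. The log2 fold change was 0.34 (SE 0.05, edgeR adjusted p = 1.8e-06), with a 95% interval of the fold from 1.19 to 1.35. Against a change of at least 1.2-fold, a test chosen after the data were seen, Myd88 was not called (edgeR adjusted p = 0.14). The other 5 risers were, beside 7.79% of all tested genes called in either direction and 5.2% called higher in that test. Of the gene's abundance, 96.86% to 98.73% was the coding form Myd88-201. The exons of Myd88 share 290 bases with Acaa1a on the opposite strand, which had 5249 and 5725 reads per group. The strand setting of the counting is not given in the sources used here, so reads of that stretch cannot be told apart with certainty.

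Tirap, which brings MyD88 to the receptors at the membrane, was not called. It had 14.6, 17.1 and 15.9 CPM with M-EV and 16.0, 16.8 and 15.9 CPM with M-LPS-EV. The groups overlapped fully, with a log2 fold change of 0.04 (SE 0.07, 95% interval -0.11 to 0.18, edgeR adjusted p = 0.75). The sign turned to -0.02 without M-EV replicate 1. The share of its second coding form, Tirap-203, was 22.34%, 23.10% and 19.77% with M-EV and 28.19%, 25.99% and 25.03% with M-LPS-EV. These shares did not overlap, but the usage test did not call the gene (edgeR diffSpliceDGE, Simes adjusted p = 1, unadjusted p = 0.87). Tirap shares 39 exon bases on the opposite strand with the abundant gene Srpr.

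Ticam1, the adaptor of the branch that leads to interferon genes, had 10.7, 9.39 and 10.0 CPM with M-EV and 8.73, 9.76 and 10.1 CPM with M-LPS-EV. The groups overlapped, and the log2 fold change of -0.08 (SE 0.09, 95% interval -0.26 to 0.11) was not called (edgeR adjusted p = 0.58). Like Tlr2, it has 1 transcript in the tables. The Myd88 level in TPM was 4.86, 6.23 and 5.24 times that of Ticam1 in the M-EV libraries and 7.88, 7.09 and 6.78 times in the M-LPS-EV libraries. The ratio was higher in each M-LPS-EV library than in any M-EV library. It too was chosen after the values were seen and has no test.

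Irak3 (ENSMUSG00000020227) lies on chromosome 10 from 120141648 to 120202130 on the minus strand. Its product is a kinase-dead member of the IRAK family that is known from LPS tolerance in macrophages. It stood at 3.34, 3.13 and 3.10 CPM with M-EV and at 8.49, 10.6 and 8.57 CPM with M-LPS-EV. The groups were far apart. The log2 fold change was 1.53 (SE 0.13, edgeR adjusted p = 4.1e-10), with a 95% interval of the fold from 2.41 to 3.46. The main form Irak3-201 held 83.11%, 17.31% and 88.02% of the abundance in the M-EV libraries and 87.11%, 93.21% and 100% in the M-LPS-EV libraries. In M-EV replicate 2 alone, 82.69% was credited to Irak3-205, a coding form of similar length that begins at an upstream first exon. The gene's total was not out of line there. On Irak3-201 reads alone, a setting chosen after the data were seen, the log2 fold change was 2.00 (edgeR adjusted p = 2.7e-07). That larger value includes the low credit of Irak3-201 in M-EV replicate 2. It had 12.77 reads there, against 82.5 and 63.25 in M-EV replicates 1 and 3. Irak3 shares 192 exon bases with Tmbim4 on the opposite strand, which had 2162 and 1989 reads per group.

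**Figure D3:**
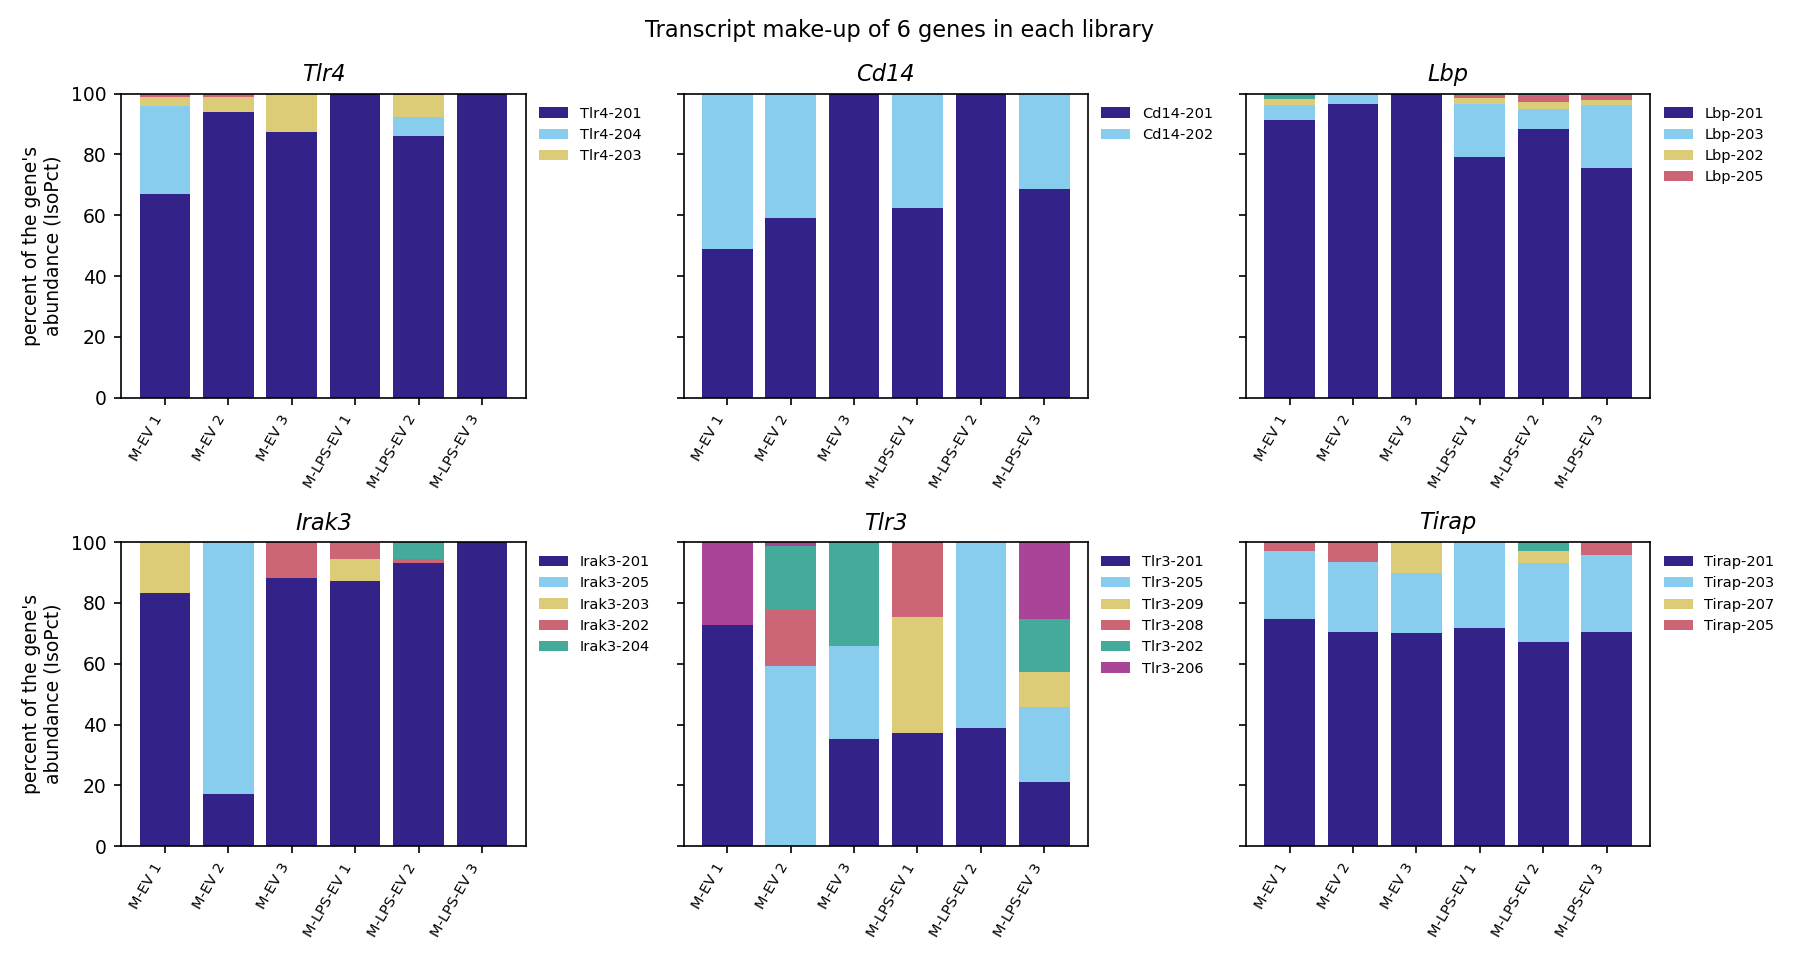
Percent of each gene's abundance held by its transcripts in each library (the authors' IsoPct values), for 6 of the genes; only transcripts with at least 1% over all libraries are named. Tlr4-204 in M-EV replicate 1 and Irak3-205 in M-EV replicate 2 are large in 1 library only. Tirap-201 holds between 67.24% and 74.8% of Tirap in all 6.

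Of the 10 genes, 3 had at least 2 transcripts that each held 10% of the gene and passed the count filter: Lbp, Tlr3 and Tirap. None was called for transcript usage (edgeR diffSpliceDGE), with 0 at an unadjusted p under 0.05 and 0 by the gene-level F-test. Among all 6375 genes in that test 0.157% were called.

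The other genes of the pathway were read from lists. Beside the count of each list stand 16.4% called higher, 15.2% called lower and 31.6% called in either direction among all tested genes. Of 9 further Toll-like receptors, 3 had enough reads for the test, and 1 was called lower and none higher (median log2 fold change -0.49). Tlr6, a partner of TLR2, had 3.90 ± 0.371 CPM with M-EV and 2.69 ± 0.374 CPM with M-LPS-EV, which gave -0.53 in log2 (SE 0.16, edgeR adjusted p = 0.014). Leaving out M-EV replicate 2 ended this call (-0.47, edgeR adjusted p = 0.059), and so did leaving out M-LPS-EV replicate 3 (-0.44, edgeR adjusted p = 0.069) and testing against a 1.2-fold change (edgeR adjusted p = 0.17). Tlr5, the flagellin receptor, had -0.49 (SE 0.20, edgeR adjusted p = 0.063). Among genes with a mean count of at least 50 it was called (edgeR adjusted p = 0.035). Tlr1, the other partner of TLR2, had 41 and 45 reads per group and 0.23 (SE 0.37, edgeR adjusted p = 0.69). The endosomal receptors Tlr7, Tlr8 and Tlr9 had 15, 9 and 1 reads with M-EV and 15, 4 and 0 with M-LPS-EV.

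In the list of receptor chaperones and other LPS-binding proteins 7 of 11 genes were tested; 1 was called higher and 2 lower (median -0.018). Scarb1, a scavenger receptor for lipoproteins that also takes up LPS, rose by 0.41 (SE 0.04, edgeR adjusted p = 6.4e-09). Hsp90b1, the endoplasmic reticulum chaperone that folds Toll-like receptors, fell by 0.12 (log2, SE 0.02) and was no longer called against a 1.2-fold change. Tmed7, a cargo receptor for TLR4, had -0.12 (SE 0.03, edgeR adjusted p = 0.011) and lost its call with effective length offsets, DESeq2, both TPM scales, the 1.2-fold test and without M-EV replicate 1, M-LPS-EV replicate 1 or M-LPS-EV replicate 2. Cd180 and Ly86, a receptor pair of B cells and myeloid cells related to TLR4 and MD-2, had 16 and 4 reads with M-EV and 11 and 1 with M-LPS-EV.

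All 22 downstream adaptors, kinases and ubiquitin enzymes were tested; 5 were called higher, 2 lower and 15 not called (median 0.013). These 7 calls among 22 genes are a share near the 31.6% called among all tested genes. Ikbke, a kinase of the interferon branch that NF-kB induces, rose by 1.14 in log2 (SE 0.10, edgeR adjusted p = 1.2e-09), with 5.52 ± 0.579 CPM in one group and 12.2 ± 0.765 CPM in the other. Traf3, a ubiquitin ligase of the same branch, rose by 0.37 (SE 0.04). Chuk, the IKK-alpha kinase, fell by 0.26 (log2, SE 0.04) and was not called against a 1.2-fold change. Irak2, the kinase that sustains MyD88 signalling, had 3.60 ± 0.336 CPM with M-EV and 6.03 ± 0.160 CPM with M-LPS-EV, a rise of 0.74 in log2 (SE 0.13, edgeR adjusted p = 6.9e-05). Its relatives Irak1 and Irak4 had -0.00047 and 0.016 and were not called. Irak1, Irak2 and Irak4 are named after their values were seen. So is Ticam2, the bridge from TLR4 to TRIF, whose 18 and 45 reads gave 1.41 in log2 (SE 0.42, edgeR adjusted p = 0.012). All 3 M-EV libraries, with 9, 5 and 4 reads, lay under the minimum of the count filter, so Ticam2 entered the test only through the M-LPS-EV libraries, with 20, 13 and 12 reads. It also shares 838 exon bases with Tmed7 on its own strand, so its read count is uncertain, and the call ended under 8 alternatives. Among them were DESeq2 (adjusted p = 0.053) and the edgeR fits that left out M-EV replicate 2 (0.052), M-EV replicate 3 (0.062) or M-LPS-EV replicate 1 (0.11).

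Of 10 negative regulators 8 were tested; 5 were called higher and none lower (median 0.30), beside 16.4% called higher and 15.2% called lower among all tested genes. Zc3h12a, an RNase that degrades cytokine mRNA, stood at 1.47 ± 0.421 CPM with M-EV and 18.2 ± 1.36 CPM with M-LPS-EV, a rise of 3.63 in log2 (SE 0.13, edgeR adjusted p = 1.8e-17). Tnfaip3, the ubiquitin editor A20, rose from 2.79 ± 0.350 to 13.3 ± 1.24 CPM (2.25, SE 0.12). Cyld, a deubiquitinase, rose by 0.25 (SE 0.04), a call that ended on log2(TPM + 1) (limma adjusted p = 0.080), on log2(TPM + 0.1) (0.076) and against a 1.2-fold change. Sigirr, an inhibitory member of the interleukin-1 receptor family, had 7 and 5 reads and was not tested.

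A further list held 9 proteins that have been reported as endogenous ligands of TLR2 or TLR4. Of these 7 were tested, with 4 called higher and 2 lower (median 0.083), beside 16.4% and 15.2% of all tested genes. The folds of the 4 called higher were 1.38 for Dcn, 1.22 for Vcan, 1.07 for Fn1 and 1.06 for Bgn. Dcn, the small proteoglycan decorin, rose from 456 ± 6.86 to 629 ± 8.69 CPM, and Tnc, the matrix glycoprotein tenascin-C, fell by 0.41 (log2, SE 0.02) from 330 ± 7.90 CPM with M-EV. Hspd1, a mitochondrial chaperonin, fell by 0.22 (log2, SE 0.02) and was not called against a 1.2-fold change. The alarmins S100a8 and S100a9 had 8 and 3 reads with M-EV and 5 and 10 with M-LPS-EV.

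**Figure D4:**
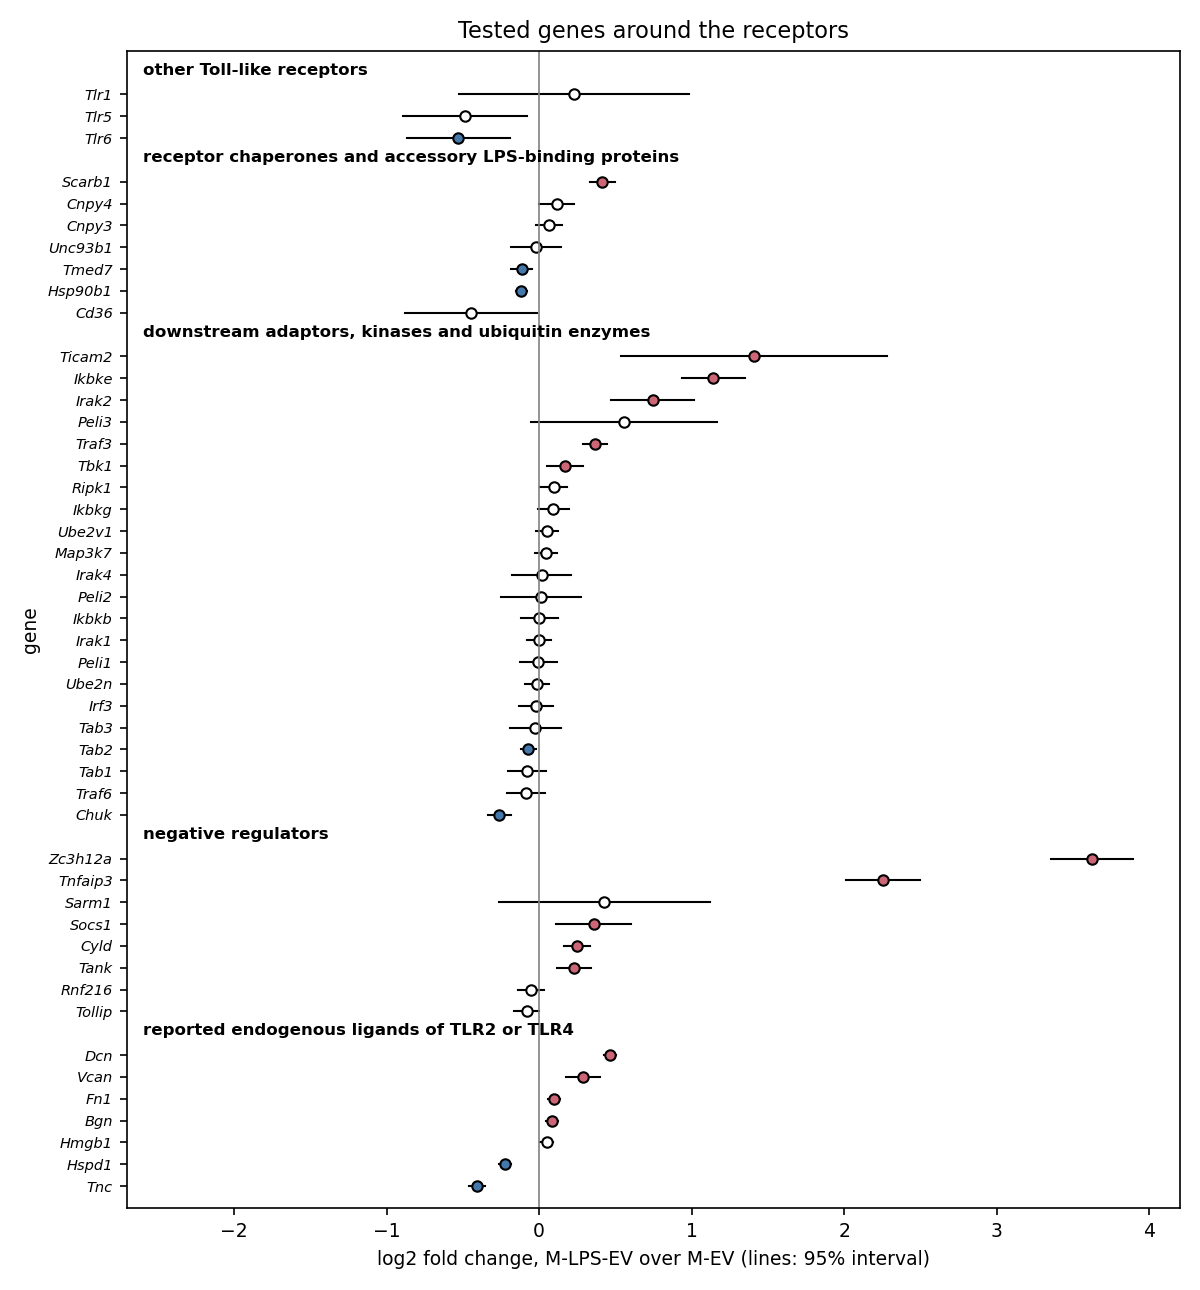
Log2 fold change (M-LPS-EV over M-EV, edgeR) of the tested genes in 5 lists around the receptors, with lines for the 95% interval; red points were called higher, blue points lower and open points not called. Zc3h12a at 3.63 and Tnfaip3 at 2.25 stand apart, while 15 of the 22 downstream genes are open points.

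The 6 libraries held between 20239626 and 25712667 expected counts each. Libraries of 1 group differed by more than sampling noise, with a chi-square per degree of freedom of 1.68 to 2.68. None was therefore a copy of another. A second run of the same library, or a second library from the same RNA or culture, may also exceed sampling noise. This was not tested here. Whether the replicates came from different cultures or animals is not stated, so the p-values rest on the spread among these libraries, which may be technical.

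**Figure D5:**
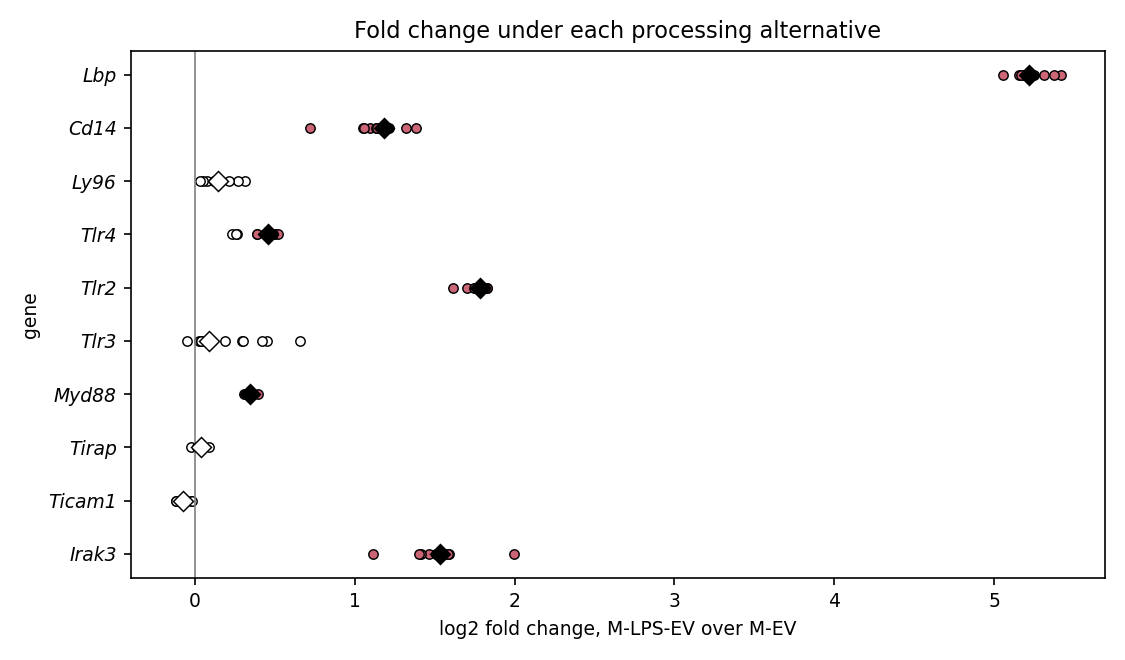
Log2 fold change of the 10 genes in the reported fit (diamonds) and under each of up to 18 other ways of processing (circles); filled symbols were called at an adjusted p under 0.05 and open symbols were not. Lbp, Cd14, Tlr2 and Irak3 are filled throughout, Tlr4 has 3 open circles, Myd88 has 1 that the diamond covers, and Ly96, Tlr3, Tirap and Ticam1 have no filled symbol.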

How the data were processed

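Groups and replicate numbers came from the sample titles. STAR, RSEM, DESeq2 and the mm10 build are named in the submitters' processing notes. Neither their versions nor the strand setting or annotation used is given in the sources used here. The authors deposited, per the file headers, an expected count, a TPM, an FPKM (not used here) and an IsoPct value (the percent of the gene's abundance) for each of 142699 transcripts per library. Of these identifiers 99.07% are in GENCODE M21 (GRCm38), which gave symbols and 1-based coordinates.

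Expected counts were summed per gene, rounded, filtered with filterByExpr (minimum count 10, minimum total 15), scaled by TMM and tested with edgeR 4.0.16 (quasi-likelihood, group only, R 4.3.3). An SE is the log2 fold change divided by the square root of the F statistic, and intervals are 95%. TPM were summed per gene. Transcript usage was tested with diffSpliceDGE on transcripts with at least 10% of their gene. The tests were tried on simulated counts. Alternatives used DESeq2 1.42.0 and limma 3.58.1. Named genes are all 10 members, up to 3 per pathway list with the smallest p, up to 3 per marker list with the highest TPM, members' transcripts with at least 10% of their gene, and others by their counts or as stated. The members and lists were chosen with earlier results of these data known, so no list was tested.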

Additional observations from a re-analysis of the deposited data

How the results depend on the processing

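The number of members called was 5 or 6 under every one of the 18 alternatives. Lbp, Tlr2 and Irak3 kept their direction and call under all 18 alternatives, and Cd14 under the 17 that tested it; with a mean count of at least 50 it was not tested. Myd88 lost its call against a 1.2-fold change, and Tlr4 with length offsets and on both TPM scales. Leaving out 1 library at a time gave Ly96 0.03 to 0.31, Ticam1 -0.12 to -0.02, Tlr3 -0.0495 to 0.295, Tirap -0.0218 to 0.0898 and Tlr1 -0.21 to 0.43; Tlr3 and Tirap turned sign without M-EV replicate 1 and Tlr1 without M-LPS-EV replicate 2, and none was called. Over all genes 4614 were called (2397 higher, 2217 lower), against 2894 (1527, 1367) with effective length offsets, 2622 (1280, 1342) on log2(TPM + 1), 2619 (1284, 1335) on log2(TPM + 0.1) and 1137 (760, 377) against a 1.2-fold change, chosen after the data were seen. The 5 pathway lists had 3, 7, 22, 8 and 7 tested genes. Of these, 22 were called (15 higher) in the reported fit, beside 31.6% called and 16.4% called higher among all tested genes. On both TPM scales 14 were called (9 higher). Against 1.2-fold 8 were called (7 higher), beside 7.79% called and 5.2% called higher among all tested genes. With the replicate number as a block 4519 genes were called and 6 members. Same-numbered samples had correlations of -0.025, -0.038 and -0.012 in their deviations, and 0 of 3 correlated best with its own number. These values show no pairing by number. They cannot exclude a shared culture or batch, since such deviations hold much counting noise. The usage test had no member left at a mean count of at least 50 and called 0 members under the other settings. Cd14 had 16 to 47 reads per library, which limits its precision and that of its transcript shares.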
